A study of Arabidopsis thaliana with 12 samples.

Results

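DNA methylation was examined at 10 heat response genes in nuclei of Arabidopsis shoot stem cells, 21 days after a heat treatment had ended. The genes were taken from a list of identifiers: the heat shock factors HSFA1A (AT4G17750), HSFA1B (AT5G16820), HSFA1D (AT1G32330), HSFA2 (AT2G26150) and HSFA3 (AT5G03720), and the chaperone and memory genes HSP101 (AT1G74310), HSA32 (AT4G21320), HSP21 (AT4G27670), HSP22 (AT4G10250) and HSP17.6C (AT1G53540). All 10 are among the 27444 protein-coding genes of the table, and all 10 have a value in every group and context. Nuclei were sorted from inflorescence apices of Col-0 plants at day 28, by a red fluorescent histone that the CLV3 promoter expresses in the stem cells (pCLV3::H2BmCherry). All groups carry this reporter: wt is the reporter line in Col-0, poliv has in addition the nrpda-3 allele of the largest subunit of RNA polymerase IV, and ddm1 the ddm1-10 allele of the chromatin remodeller DDM1. Each genotype was sampled without heat (control) and after 1 day at 37 °C up to day 7, with recovery for the 21 days until sampling (heat), with 2 libraries in each of the 6 groups. The table gives 1 pooled set of calls per group, so no value below has a replicate error, and every test compares pooled libraries and does not cover the spread between plants. Methylation does not show which nuclei were sorted, and the identity of the nuclei was not checked here.

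HSFA1A, HSFA1B and HSFA1D act at the top of the heat response: chaperones hold them inactive at normal temperature, and on heat they turn on other heat shock factors and chaperone genes. HSFA2 and HSFA3 prolong that response, and together they are needed for transcriptional memory, the stronger or longer expression of some heat genes after a past heat stress. HSP101 takes apart protein aggregates, HSA32 is needed to keep acquired thermotolerance, and the small heat shock proteins bind unfolding proteins: HSP21 in plastids, HSP22 in the endoplasmic reticulum and HSP17.6C in the cytosol. Plant cytosines are methylated in 3 sequence contexts, CG, CHG and CHH, where H is A, C or T. Methylation in the body of expressed genes is usually in CG alone, while transposable elements (TEs) carry it in all contexts. RNA polymerase IV makes the precursors of small RNAs that direct CHH methylation, and DDM1 opens heterochromatin for the methyltransferases.

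Values were read per gene, as the share of all cytosine calls that were methylated, so they do not resolve single sites. HSFA1D is a body-methylated factor gene with no called CG difference in ddm1, and HSFA1B one with a lower CG level there than in wt. HSP17.6C is a small heat shock protein gene without measurable CG methylation, and HSP22 a gene with more CHG methylation in ddm1. The coding stretches below show what cytosines lie in these genes, not which of them were methylated. Each is the 120 bases within 1 coding segment, here in exon 1, that hold the most sites, taken from the TAIR10.1 RefSeq genome and printed 5′ to 3′ on the strand of the gene. Capitals mark CG dinucleotides in the first 3 and CHG trinucleotides in HSP22.
HSFA1D, chr1:11660115-11660234, minus strand: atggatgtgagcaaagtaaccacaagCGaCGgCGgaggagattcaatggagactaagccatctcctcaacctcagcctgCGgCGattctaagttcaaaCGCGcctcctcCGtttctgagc
HSFA1B, chr5:5530446-5530565, plus strand: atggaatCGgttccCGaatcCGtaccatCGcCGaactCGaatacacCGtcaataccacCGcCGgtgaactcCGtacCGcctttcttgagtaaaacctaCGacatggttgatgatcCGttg
HSP17.6C, chr1:19980528-19980647, plus strand: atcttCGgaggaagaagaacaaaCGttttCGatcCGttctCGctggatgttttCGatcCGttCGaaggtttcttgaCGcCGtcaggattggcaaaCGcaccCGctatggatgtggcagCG
HSP22, chr4:6370628-6370747, plus strand: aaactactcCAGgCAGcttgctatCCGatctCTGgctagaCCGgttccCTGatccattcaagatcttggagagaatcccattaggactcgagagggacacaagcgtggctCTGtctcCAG
The stretches of HSFA1B and HSP17.6C each hold 13 CG sites, and that of HSFA1D holds 8. The HSP22 stretch holds 8 CHG sites.

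The density of CG sites did not follow the methylation of the genes. HSP17.6C has 86.6 CG cytosines per kb of gene on both strands, more than 91.8% of all protein-coding genes, and HSP21 has 61.0. HSFA1D, the most methylated of the genes, has 42.8 per kb, below the median of 50.1 over all genes. HSP22 stands at the other end, with 18 CG cytosines in its 1035 bases, 17.39 per kb, and 0.485% of genes have fewer per kb. Its CHG cytosines number 60. The number of calls per CG cytosine lay between 6.32 and 17.5 over the 10 genes and 6 groups, while the median over all genes was between 7.34 and 11.9 per group.

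**Figure D1:**
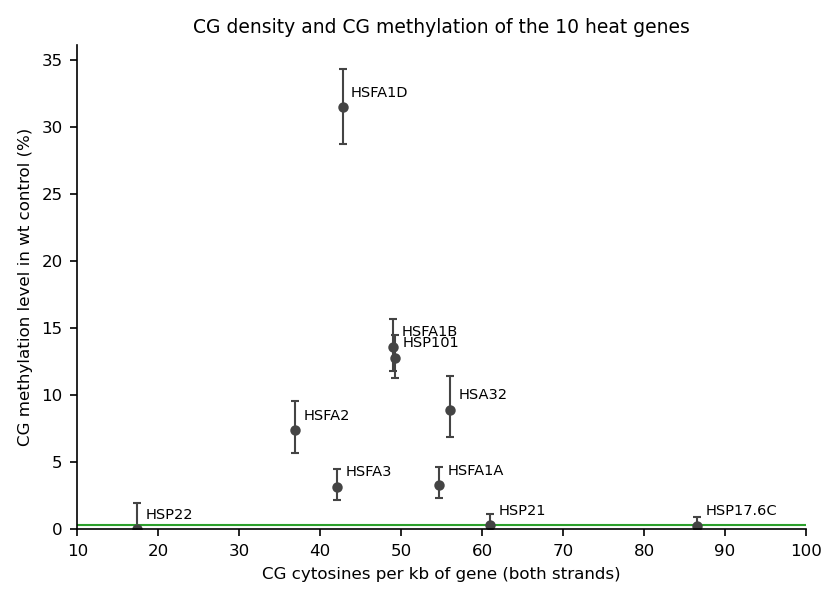
CG cytosines per kb of gene on both strands (x axis) against the CG methylation level in wt control in percent (y axis) for the 10 genes. Points are pooled levels, bars 95% Wilson intervals that cover counting error only, and the green line is the chloroplast level of 0.328%. HSP17.6C and HSP21, with 86.6 and 61.0 CG cytosines per kb, lie at the chloroplast level, and HSFA1D, with 42.8, at 31.5%.

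Chloroplast DNA was taken as unmethylated, so that calls in the chloroplast genes (ATCG identifiers) measure the background of unconverted cytosines. This background was higher in every heat group than in its control. In CG it went from 0.328% to 0.670% between wt control and wt heat, from 0.348% to 0.616% in poliv and from 0.380% to 0.739% in ddm1. In CHH it went from 0.390% to 0.703% in wt, from 0.404% to 0.704% in poliv and from 0.450% to 0.805% in ddm1. A gene was called above the background where a one-sided Fisher's exact test on its calls passed in all 6 groups at an adjusted p of 0.05, with Benjamini-Hochberg adjustment over all genes tested. In CG 6 of the 10 genes passed (HSFA1A, HSFA1B, HSFA1D, HSFA2, HSP101 and HSA32), and 50.8% of all genes did. HSFA3 passed in 5 groups and not in ddm1 heat. In CHG 0 of 10 passed in all 6 groups, against 3.78% of all genes, and in CHH HSFA3 alone passed, against 2.45%. The small heat shock protein genes HSP21 and HSP17.6C passed in CG in no group, and HSP22 passed in ddm1 heat and in no other group, where 55% of all genes passed.

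**Figure D2:**
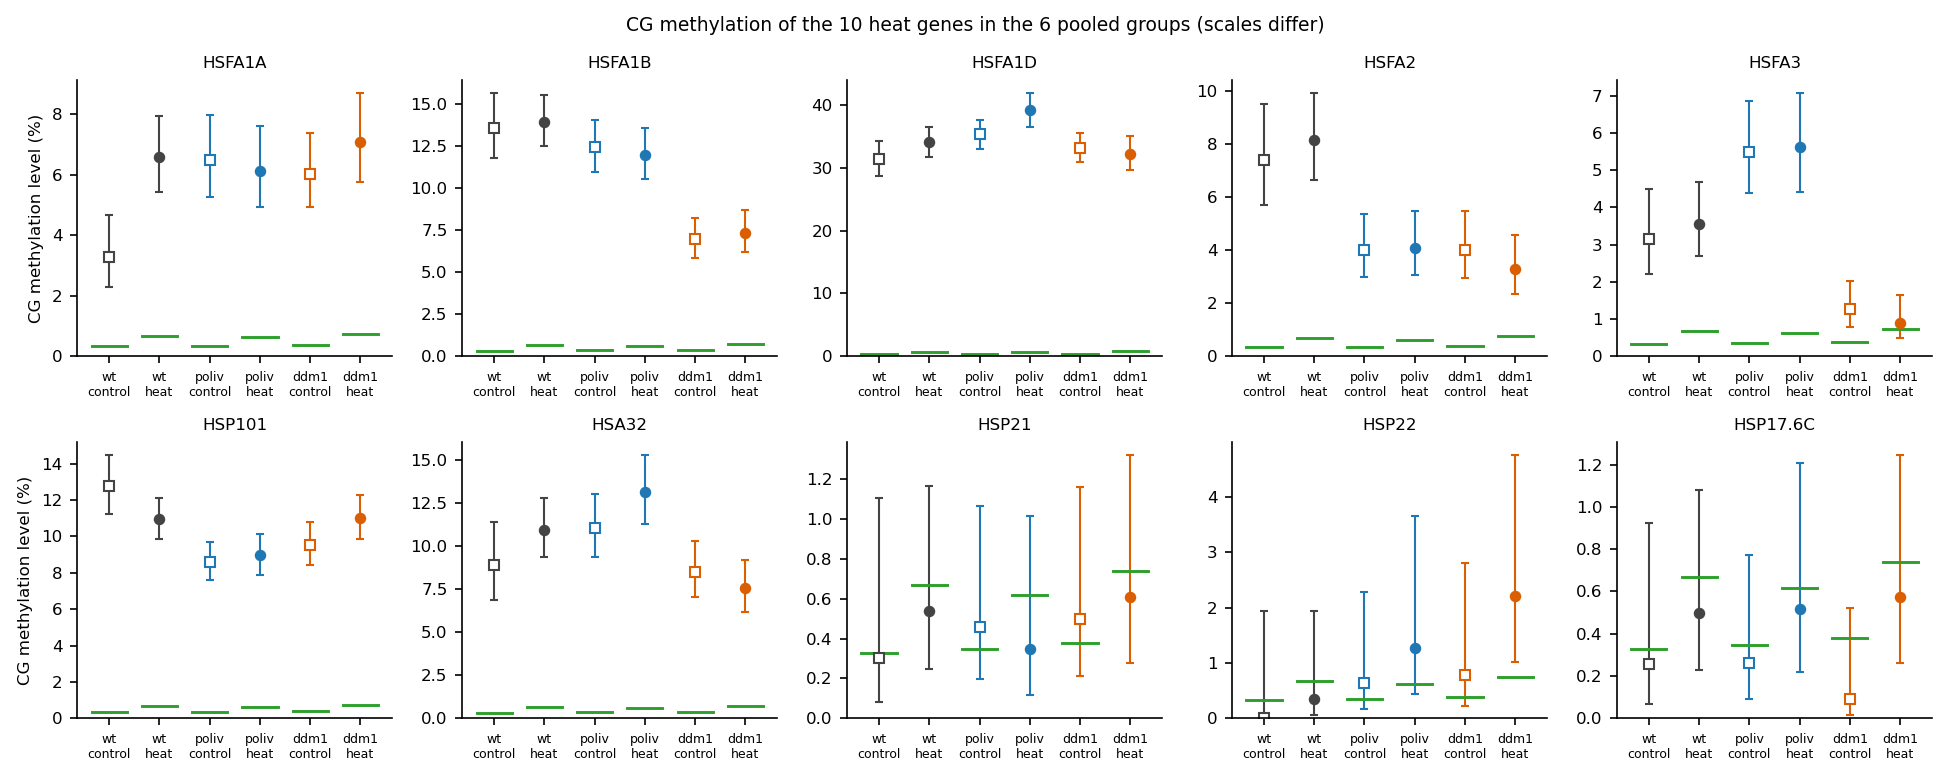
CG methylation level in percent (y axis, scales differ between panels) of each of the 10 genes in the 6 pooled groups (x axis). Open squares are control, filled circles heat, bars are 95% Wilson intervals of counting error, and green lines mark the chloroplast level of each group. HSFA1D lies between 31.5% and 39.1% in all 6 groups, HSFA1B drops from 13.6% in wt control to 6.94% in ddm1 control, and HSP21 and HSP17.6C stay under 0.7%.

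Among the master regulators, HSFA1D was the most methylated gene of the 10 in CG in every group. Its CG level was 31.5% in wt control, 34.1% in wt heat, 35.3% in poliv control, 39.1% in poliv heat, 33.2% in ddm1 control and 32.3% in ddm1 heat, from 1052 to 1641 calls. The interval of HSFA1D did not overlap that of the next gene in any group. The poliv heat level was the highest, and its interval did not overlap those of wt control and both ddm1 groups. In the heat pair poliv was 5.05 points above wt (1.38 to 8.72), which just missed the threshold (adjusted p = 0.0539, Fisher's exact test), and the remaining pairs did not pass either. HSFA1D stood above 84.5% of all genes in wt control and above 94.1% in ddm1 control. Across all genes, 30.9% had lower CG levels in ddm1 than in wt in both pairs (control against control, heat against heat) by the two-sided Fisher's exact test, and 0.956% had higher levels. None of the 10 genes was higher than wt in CG in both pairs in either mutant, and in poliv 3.73% of all genes were.

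HSFA1B was one of the genes with lower CG levels in ddm1 than in wt in both pairs. Its CG level was 13.6% in wt control, 13.9% in wt heat, 12.4% in poliv control, 11.97% in poliv heat, 6.94% in ddm1 control and 7.35% in ddm1 heat. Both ddm1 groups lay below the 4 others with no overlap of the intervals. The difference to wt was -6.65 percentage points in the control pair (95% interval -9.00 to -4.41, adjusted p = 2.97e-08, Fisher's exact test) and -6.60 points in the heat pair (-8.57 to -4.61, adjusted p = 7.91e-10, Fisher's exact test). With the statistic scaled to its median over all genes, the adjusted p of the Fisher's exact test was 0.0189 and 0.0510. This step divided the statistic by 1.98 and 2.46. Differences that many genes share enter that divisor along with the spread, and 30.9% of all genes were lower in ddm1 in both pairs. A call against wt that is lost after scaling is thus not shown to be spread alone. HSFA1B overlaps its neighbour SYP21 by 44 bases, whose own CG level was between 0.348% and 1.63%.

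HSFA1A stood above 46.6% to 63.7% of all genes in CG, depending on the group. Its level was 3.26% in wt control, 6.56% in wt heat, 6.48% in poliv control, 6.13% in poliv heat, 6.03% in ddm1 control and 7.08% in ddm1 heat. The wt control group was the lowest, from 29 methylated of 889 calls, and the other 5 groups overlapped each other. The rise of 3.30 points with heat in wt (1.51 to 4.98) had an adjusted p of 0.0399 in Fisher's exact test. It did not pass when both groups were brought to the same chloroplast level before Fisher's exact test (adjusted p = 0.129). In poliv control the level was 3.22 points higher than in wt control (adjusted p = 0.0124, Fisher's exact test), and in ddm1 control 2.77 points higher (adjusted p = 0.00970), while the heat pairs did not pass. In the control pair alone 7.11% of all genes were higher in poliv and 2.2% in ddm1. With the statistic scaled to its median over all genes, the 2 calls did not pass in Fisher's exact test (adjusted p = 0.0827 and 0.427). All of these comparisons share the wt control columns.

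Of the factors that prolong the response, HSFA2 had lower CG levels in both mutants. Its level was 7.37% in wt control, 8.13% in wt heat, 3.98% in poliv control, 4.08% in poliv heat, 4.01% in ddm1 control and 3.28% in ddm1 heat. The 4 mutant groups overlapped each other and lay below both wt groups. In poliv the difference was -3.39 points in the control pair (-5.76 to -1.22, adjusted p = 0.0314, Fisher's exact test) and -4.05 points in the heat pair (-6.12 to -2.02, adjusted p = 0.00191). In ddm1 it was -3.36 points (adjusted p = 0.0127, Fisher's exact test) and -4.85 points (adjusted p = 9.68e-06). The comparisons of the 2 mutants share their wt columns. HSFA2 was 1 of the 10 genes lower in poliv in both pairs, against 2.12% of all genes. Its 4 calls did not pass after scaling (adjusted p from 0.0964 to 0.455 in Fisher's exact test).

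HSFA3 had little CG methylation, and ddm1 had the least. The CG level was 3.15% in wt control, 3.56% in wt heat, 5.50% in poliv control, 5.61% in poliv heat, 1.26% in ddm1 control and 0.895% in ddm1 heat. The ddm1 levels were the lowest of the 6. The difference to wt was -1.89 points in the control pair (-3.31 to -0.681, adjusted p = 0.00998, Fisher's exact test) and -2.67 points in the heat pair (-3.87 to -1.53, adjusted p = 3.92e-05), which did not pass after scaling (adjusted p = 0.430 and 0.277 in the same test). The poliv levels were 2.34 and 2.05 points above wt, which did not pass. HSFA1B, HSFA2 and HSFA3 were the 3 of the 10 genes lower in ddm1 in CG in both pairs, a share near the 30.9% of all genes.

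HSP101 and HSA32 carried intermediate CG methylation. HSP101 had 12.8% in wt control, 10.9% in wt heat, 8.59% in poliv control, 8.95% in poliv heat, 9.53% in ddm1 control and 11.0% in ddm1 heat. The wt control level was the highest, and the control pair alone passed for poliv, at -4.18 points (-6.14 to -2.30, adjusted p = 3.77e-04, Fisher's exact test), and for ddm1, at -3.24 points (adjusted p = 0.00519). In the control pair alone 3.76% of all genes were lower in poliv and 34.9% in ddm1, and after scaling the poliv call passed and the ddm1 call did not (adjusted p = 0.00897 and 0.365, Fisher's exact test). HSA32 had 8.90% in wt control, 10.9% in wt heat, 11.1% in poliv control, 13.2% in poliv heat, 8.51% in ddm1 control and 7.54% in ddm1 heat. Its heat pair alone passed for ddm1, at -3.40 points (-5.69 to -1.10, adjusted p = 0.0126, Fisher's exact test), where 39.3% of all genes were lower in that pair, and it did not pass after scaling (adjusted p = 0.677). No comparison of HSA32 with poliv passed in CG. HSA32 overlaps AT4G21323 by 113 bases, whose CG level was 24.8% in wt control, 27.3% in wt heat, 13.9% in ddm1 control and 9.36% in ddm1 heat.

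The 3 small heat shock protein genes had next to no CG methylation. HSP21 lay between 0.305% (wt control) and 0.609% (ddm1 heat), and HSP17.6C between 0.0924% (ddm1 control) and 0.573% (ddm1 heat). HSP22 had 0 methylated of 194 CG calls in wt control, which allows a level of up to 1.55%, and 6 of 271 in ddm1 heat (2.21%). No comparison of these 3 genes in CG passed a test. The other 15 small heat shock protein genes of a list of related heat genes were alike in level: their median CG level was 0.325% in wt control, and 1 of 15 was above the chloroplast level in all 6 groups. That gene was ACD32.1. Of 16 other heat shock factor genes 6 passed, of 14 genes for HSP90, HSP70 and ClpB chaperones 10 passed, and of 15 regulators of heat memory and thermotolerance 7 passed, against the 50.8% of all genes.

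**Figure D3:**
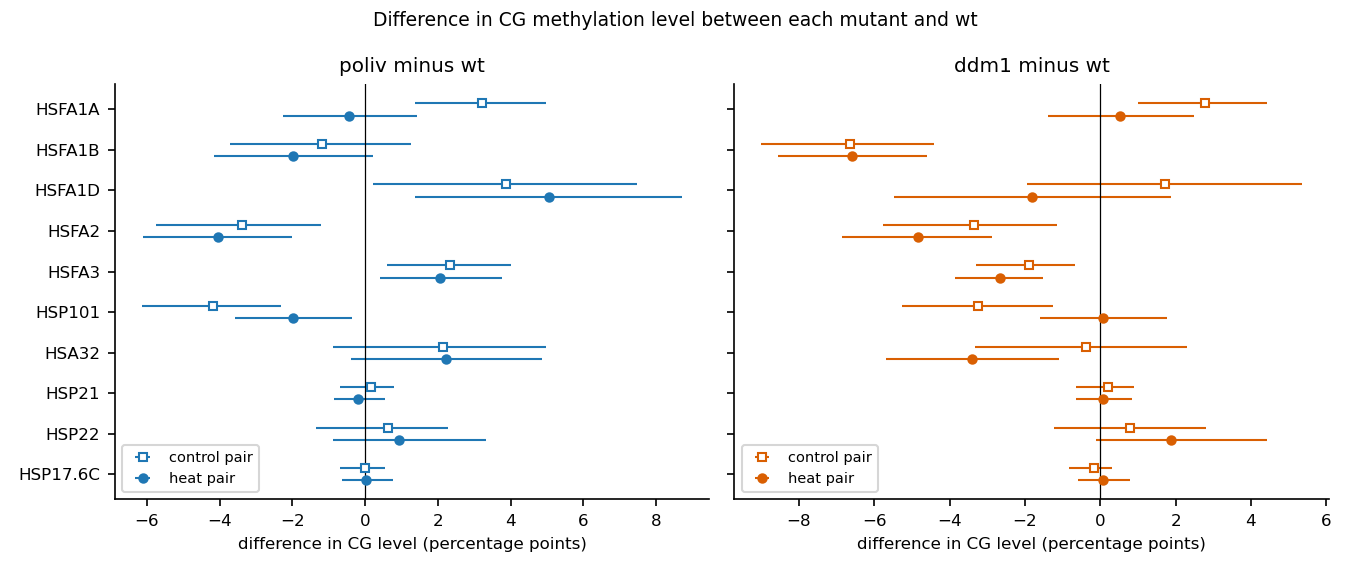
Difference in CG methylation level between poliv and wt (left) and between ddm1 and wt (right) in percentage points (x axis) for the 10 genes (y axis). Open squares are the control pair, filled circles the heat pair, and bars 95% intervals of counting error. HSFA1B in ddm1 lies at -6.65 and -6.60 points, HSFA2 lies below 0 in both mutants, and HSFA1D has no pair that passed the test.

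Some of the related heat genes also had lower CG levels in ddm1 than in wt. Results with the statistic scaled are not given for these genes. HSFA1E, the fourth HSFA1 factor gene, went from 10.2% in wt control to 2.87% in ddm1 control, a difference of -7.36 points (adjusted p = 1.37e-18, Fisher's exact test). HSFA4A (-8.76 points), HSFA5 (-8.79 points) and HSFA6B (-3.48 points) were also lower in ddm1 control, and all 4 were lower in the heat pair too. They were 4 of 16 other heat shock factors. Of the chaperones 3 of 14 and of the regulators 3 of 15 were lower in both pairs, against 30.9% of all genes. Among the 15 small heat shock proteins 0 were lower. Their CG levels in wt control had a median of 0.325% and reached 14.5%. Whether low levels account for this count was not tested. Among the regulators, BRU1, which is needed for heat memory and for the inheritance of chromatin states, went from 21.0% in wt control to 12.03% in ddm1 control. FGT1, which holds nucleosomes away from memory genes, had 28.8% and 28.9%.

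The CG levels of the genes after heat lay near those of their controls in all 3 genotypes. Apart from HSFA1A in wt, 0 of 10 genes passed in CG between heat and control in any genotype, where of all genes 1.28% (wt), 1.91% (poliv) and 2.32% (ddm1) were higher and 0.2%, 0.938% and 2.08% lower. The widest intervals were those of HSFA1D, which ran from -1.11 to 6.32 points in wt, from 0.213 to 7.39 in poliv and from -4.50 to 2.73 in ddm1, and none of the 3 passed after adjustment. HSFA2 differed by 0.759 points in wt (-1.85 to 3.22), 0.0988 in poliv (-1.61 to 1.81) and -0.725 in ddm1 (-2.45 to 0.955). HSP21, HSP22 and HSP17.6C differed by at most 1.43 points in every genotype. With pooled columns there are 8 ways of assigning heat and control within the 3 genotypes, so that an exact permutation test over them could not give a two-sided p below 0.25.

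**Figure D4:**
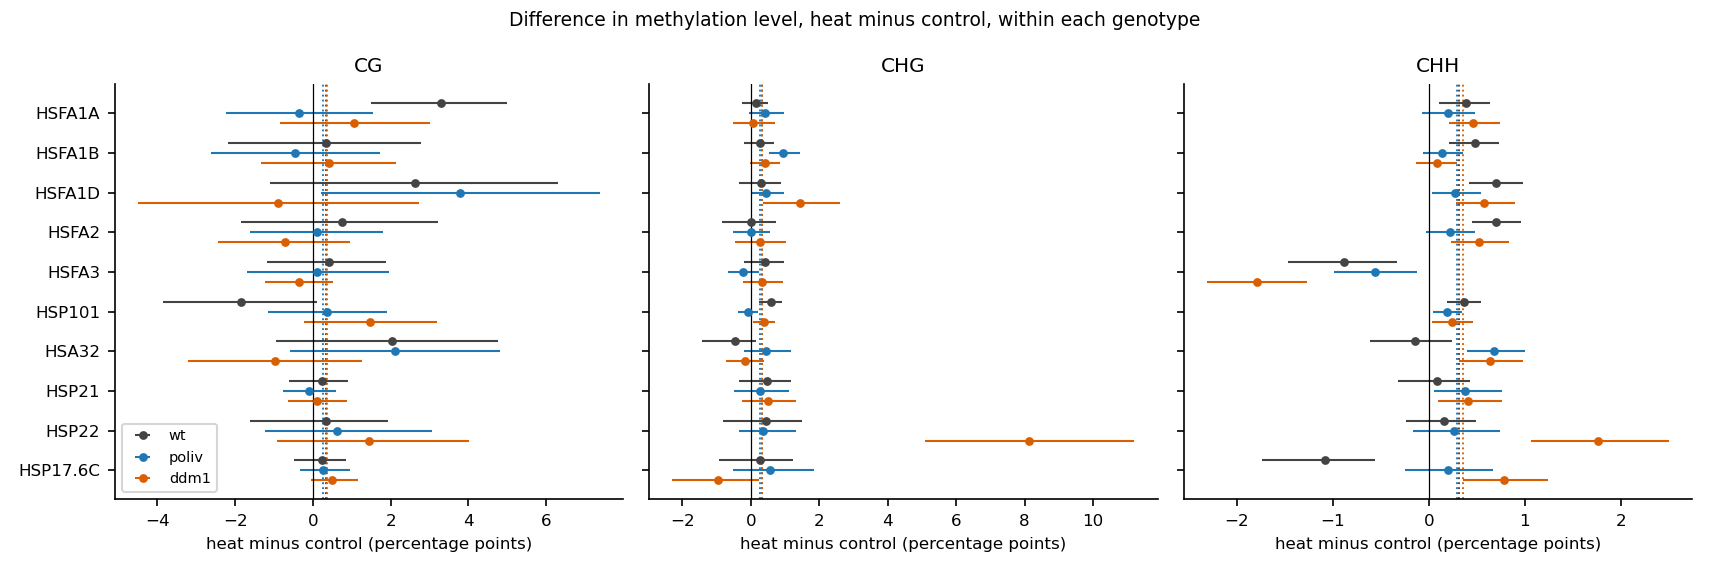
Heat minus control in percentage points (x axis) for the 10 genes (y axis) in wt, poliv and ddm1, in CG, CHG and CHH. Points are differences of pooled levels, bars 95% intervals of counting error, and dotted lines the same difference in the chloroplast genes. HSFA3 lies left of 0 in CHH in all 3 genotypes, and HSP22 in ddm1 lies at 8.13 points in CHG.

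In CHG, HSP22 was the gene that stood apart, and it did so in ddm1. Its CHG level was 0.587% in wt control, 1.02% in wt heat, 0.237% in poliv control, 0.609% in poliv heat, 4.43% in ddm1 control and 12.6% in ddm1 heat. These rest on 3 of 511, 8 of 785, 2 of 845, 4 of 657, 27 of 610 and 82 of 653 calls. The wt and poliv levels overlapped each other and did not pass the test against the chloroplast level, and both ddm1 groups lay above all 4. The difference between ddm1 and wt was 3.84 points in the control pair (2.07 to 5.81, adjusted p = 5.19e-04, Fisher's exact test) and 11.5 points in the heat pair (9.02 to 14.3, adjusted p = 1.79e-19). Within ddm1 the heat group was 8.13 points above its control (5.11 to 11.2, adjusted p = 2.11e-05, Fisher's exact test), with the chloroplast level higher by 0.327 points. HSP22 was the 1 of the 10 genes higher in CHG after heat in ddm1, against 6.33% of all genes, and 148 genes had a rise of at least its size in points.

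The effect of heat on HSP22 in CHG was larger in ddm1 than in wt, by 7.70 points, which passed a z test of the difference over all genes at an adjusted p of 0.05, as did 1.83% of all genes in that direction. In wt, heat and control differed by 0.432 points. The CHG result for HSP22 held with the groups brought to the same chloroplast level and with the statistic scaled (adjusted p = 9.03e-05 in Fisher's exact test for heat against control in ddm1). The CHH level of HSP22 moved the same way, with 0.265%, 0.424%, 0.573% and 0.841% in wt control, wt heat, poliv control and poliv heat, and 0.884% and 2.65% in ddm1 control and heat. In CHH the heat pair differed by 2.22 points between ddm1 and wt (1.61 to 2.92, adjusted p = 3.72e-11, Fisher's exact test) and the control pair did not pass. In that heat pair alone 8.2% of all genes were higher in CHH. The CHH rise of HSP22 with heat in ddm1 passed at equal chloroplast levels (adjusted p = 0.0134, Fisher's exact test). It did not pass with the statistic scaled (adjusted p = 0.977) or with both steps (adjusted p = 0.0779, Fisher's exact test). The effect of heat on HSP22 in CHH was 1.61 points larger in ddm1 than in wt by the z test, as it was larger at 3.34% of all genes.

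The gene that follows HSP22, AT4G10260, starts 4 bases away and had a different pattern in CG. Its CG level was 54.5% in wt control, 58.6% in wt heat, 62.4% and 60.3% in poliv, 4.74% in ddm1 control and 3.38% in ddm1 heat. Its CHG level was 0.746% in wt control, 1.27% in wt heat, 0.591% in poliv control, 1.68% in poliv heat, 3.59% in ddm1 control and 6.67% in ddm1 heat, so that CG was lower and CHG higher in ddm1 than in wt in both pairs. On the other side, bbx23 lies 387 bases away and its CHG level was 0.362% in wt control, 1.17% in wt heat, 1.77% in ddm1 control and 3.58% in ddm1 heat, of which the heat pair passed (adjusted p = 0.0196, Fisher's exact test). HSP22 had the highest CHG level of the 3 genes in ddm1 heat, and the fewest CG cytosines per kb.

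**Figure D5:**
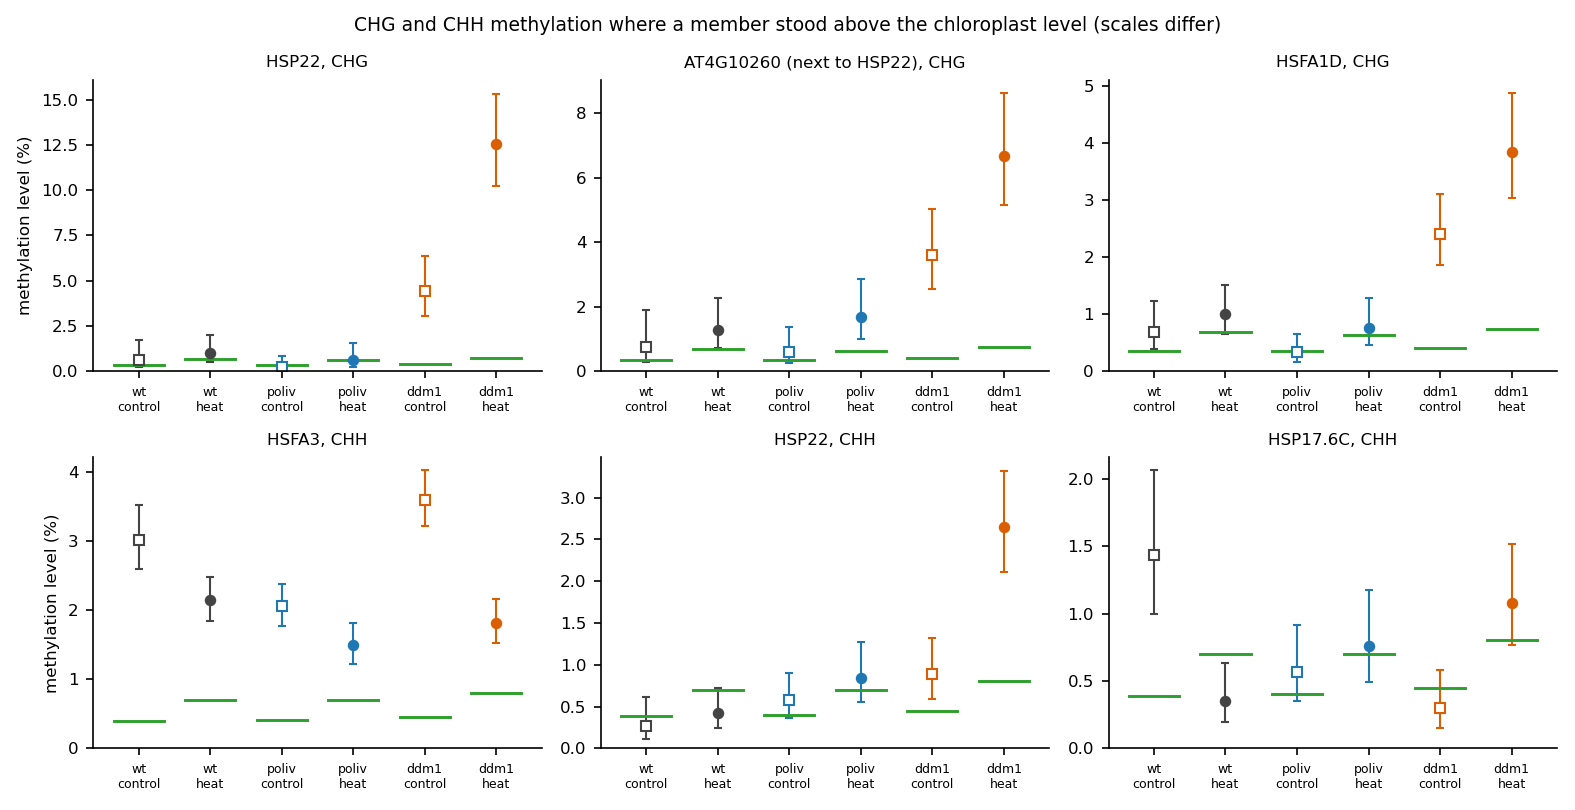
Methylation level in percent (y axis, scales differ) in the 6 pooled groups (x axis): CHG of HSP22, of its neighbour AT4G10260 and of HSFA1D in the upper panels, CHH of HSFA3, HSP22 and HSP17.6C in the lower panels. Open squares are control, filled circles heat, bars 95% Wilson intervals of counting error, and green lines the chloroplast level. HSP22 reaches 12.6% in CHG in ddm1 heat, and HSFA3 is lower in heat than in control in each genotype while the green line is higher.

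HSFA1D also had more CHG methylation in ddm1. Its CHG level was 0.693% in wt control, 0.994% in wt heat, 0.326% in poliv control, 0.763% in poliv heat, 2.40% in ddm1 control and 3.85% in ddm1 heat. Both ddm1 levels lay above the other 4 without overlap. The difference to wt was 1.71 points in the control pair (0.938 to 2.48, adjusted p = 3.49e-04, Fisher's exact test) and 2.85 points in the heat pair (1.90 to 3.93, adjusted p = 4.15e-08), and both passed under all alternatives. HSP22 and HSFA1D were 2 of 10 genes higher in CHG in ddm1 in both pairs, against 7.79% of all genes, and none was lower, against 4.24%. In poliv no gene of the 10 was higher or lower than wt in CHG in both pairs, against 0.141% and 0.43% of all genes. One gene of each list of related genes did the same: HSFA5 (0.311% to 1.51% in the control pair), ACD32.1 (7.29% to 24.5%), HSP90.4 (0.521% to 5.35%) and FGT1 (0.394% to 2.30%). HSFA1D has the short gene AT1G32337 at 1343 bases, which had 97.3% CG and 80.4% CHG in wt control and 59.6% and 63.1% in ddm1 control.

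Of the other 8 genes, 6 were above the chloroplast level in CHG in no group. HSP17.6C was above it in ddm1 control alone, at 1.56% from 10 of 641 calls (adjusted p = 0.00190, one-sided Fisher's exact test), with 0.613% in ddm1 heat and 0.426% in wt control, and no comparison between groups passed for it. HSFA1B was above it in poliv heat alone (adjusted p = 0.0162, one-sided Fisher's exact test). HSFA1B was higher after heat in poliv, from 0.201% to 1.15% (adjusted p = 0.00563, Fisher's exact test), the 1 call among the 10 genes where 0.568% of all genes were called, and it did not pass once the chloroplast levels were equal (adjusted p = 0.940 in the same test). No gene of the 10 was lower in CHG after heat, against 0.0965% of all genes in wt, 0.108% in poliv and 0.516% in ddm1, and in wt none was higher, against 1.73%. The gene before HSFA1B, AT5G16810, had 6.58% CHG in wt control, 5.999% in wt heat, 2.35% in poliv control, 1.51% in poliv heat, 3.89% in ddm1 control and 2.14% in ddm1 heat, while HSFA1B itself stayed between 0.201% and 1.15%.

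In CHH, HSFA3 was the exception. Its CHH level was 3.03% in wt control, 2.14% in wt heat, 2.06% in poliv control, 1.49% in poliv heat, 3.60% in ddm1 control and 1.82% in ddm1 heat, from 5157 to 8173 calls. These levels lay above those of 94.1% to 98.8% of all genes, and 2.12 to 8.00 times the chloroplast level. The CHG level of HSFA3, between 0.257% and 0.845%, passed the test against the chloroplast level in no group. Of the 665 genes above the chloroplast level in CHH in all 6 groups, 125 had, like HSFA3, no group above it in CHG. The overlapping gene AT5G03710, which shares 486 bases with HSFA3, had CHH levels between 0.180% and 0.915%, and CTR1, 33 bases away on the other side, between 0.257% and 0.701%.

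HSFA3 was lower in CHH after heat in each genotype. The difference was -0.882 points in wt (-1.46 to -0.333, adjusted p = 0.00802, Fisher's exact test), -0.563 points in poliv (-0.990 to -0.127, adjusted p = 0.0439) and -1.79 points in ddm1 (-2.31 to -1.26, adjusted p = 4.51e-09). In the same pairs the chloroplast level was higher after heat by 0.313, 0.299 and 0.355 points. Adjusted over all features, the poliv call did not pass (adjusted p = 0.0740, Fisher's exact test). With the groups brought to the same chloroplast level and the statistic scaled, the adjusted p of Fisher's exact test was 0.0221, 0.0218 and 2.26e-08. Scaled without that step, which divides the statistic by 2.56 to 3.05, no member passed. The share of all genes under that setting is not given here. The heat effect in poliv and that in ddm1 did not pass the z test of the difference against wt, and poliv was not tested against ddm1.

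Lower CHH after heat in all 3 genotypes was found at 5 of 27129 genes, and 4 remained at equal chloroplast levels. Apart from HSFA3, and named after their values were seen, these were AT1G40086, AT2G22510, AT5G11000 and AT5G26080, of which AT1G40086 did not pass at equal chloroplast levels. Their CHH levels in wt control and wt heat were 6.16% and 3.63%, 47.0% and 16.9%, 2.89% and 1.30%, and 15.0% and 5.29%. The densest 60 bases of HSFA3 hold 27 cytosines on 1 strand, and 74.6% of genes have fewer in theirs. For the other 4 genes the number was 17, 29, 32 and 30. One chloroplast identifier, ATCG09900, had a CHH level of 31.3% to 42.6% in all 6 groups, from 257 to 634 calls, while the highest of the others was 3.03%. HSFA3 stood above all others but ATCG09900 in 5 groups and not in ddm1 heat.

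The heat difference of HSP17.6C in CHH had opposite signs in wt and ddm1, though the gene stood above the chloroplast level in wt control alone. Its CHH level was 1.44% in wt control, 0.355% in wt heat, 0.566% in poliv control, 0.763% in poliv heat, 0.297% in ddm1 control and 1.08% in ddm1 heat. The wt control level, from 28 of 1950 calls, was the highest of the 6. It passed the test against the chloroplast level (adjusted p = 1.74e-07, one-sided Fisher's exact test). No other group passed, with ddm1 heat at an adjusted p of 0.401 in the same test. Heat minus control was -1.08 points in wt (-1.73 to -0.559, adjusted p = 4.68e-04, Fisher's exact test, and 1.59e-04 at equal chloroplast levels). It was 0.785 points in ddm1 (0.361 to 1.24, adjusted p = 0.00245, Fisher's exact test, and 0.563 at equal chloroplast levels). The heat effect on HSP17.6C was larger by 1.28 points in poliv and by 1.87 points in ddm1 than in wt, both past the z test, and a larger effect in CHH was found at 1.58% of all genes in poliv. HSFA3 and HSP17.6C were the 2 of 10 genes lower in wt, against 1.12% of all genes, and HSFA3 was the 1 of 10 lower in poliv and in ddm1, against 0.700% and 0.619%.

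The remaining CHH differences with heat that passed were upward, as was the chloroplast level. Of the 10 genes 5 were higher in CHH after heat in wt, 2 in poliv and 7 in ddm1, where 39.2%, 30.7% and 43.6% of all genes were. At equal chloroplast levels 0, 0 and 1 of these passed, the last being HSP22 (adjusted p = 0.0134, Fisher's exact test). Over all genes, those higher in CHH after heat in all 3 genotypes went from 2773 to 4 with that step. The fall is thus not shown to be particular to heat genes, and shares of all genes per genotype with that step are not given here. HSA32 went from 0.190% in poliv control to 0.873% in poliv heat (adjusted p = 1.21e-04, Fisher's exact test, and 0.415 at equal chloroplast levels) and had 0.903% in wt control against 0.756% in wt heat. HSFA2 went from 0.137% in wt control, from 6 of 4395 calls, to 0.838% in wt heat. The lists of related genes showed the same: in wt 4 of 16 factors, 5 of 15 small heat shock proteins, 8 of 14 chaperones and 7 of 15 regulators were higher in CHH after heat, and at equal chloroplast levels 0 in each.

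Between the mutants and wt, no gene of the 10 differed in CHH in both pairs in the same direction. Over all genes 0.14% were higher and 0.922% lower in poliv, and 1.56% and 2.45% in ddm1. In the control pair alone HSFA3 was lower in poliv, by -0.969 points (-1.55 to -0.424, adjusted p = 0.0202, Fisher's exact test), and HSA32 by -0.713 points (-1.15 to -0.376, adjusted p = 0.00165), against 2.43% of all genes. The heat pair of HSFA3 differed by -0.650 points and just missed the threshold (adjusted p = 0.0538, Fisher's exact test). In ddm1 the control pair of HSP17.6C differed by -1.14 points (adjusted p = 6.20e-04, Fisher's exact test) and its heat pair by 0.727 points (adjusted p = 0.0108), so the 2 pairs had opposite signs. HSP101 was higher in ddm1 control, by 0.347 points (adjusted p = 0.00779, Fisher's exact test), and HSFA1B lower in ddm1 heat, by -0.356 points (adjusted p = 0.0426). In these pairs alone 3.46% of all genes were higher and 4.25% lower in ddm1 control, and 6.2% were lower in ddm1 heat. At equal chloroplast levels the HSP101 difference did not pass (adjusted p = 0.0642, Fisher's exact test). After scaling, the heat pairs of HSP17.6C and HSFA1B did not pass (adjusted p = 0.457 and 0.654, Fisher's exact test).

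Of the 15 other small heat shock proteins, 5 (wt), 3 (poliv) and 4 (ddm1) were higher in CHH after heat, and 1 was lower in each genotype, where 1.12%, 0.7% and 0.619% of all genes were lower. The median difference was 0.363 points in wt, 0.0950 in poliv and 0.383 in ddm1, beside 0.313, 0.2503 and 0.312 over all genes, and 13, 10 and 14 of the 15 differences were above 0. The lower ones, named after their values were seen, were HSP17.6B in wt, from 2.19% to 0.691% (adjusted p = 0.00121, Fisher's exact test), and in ddm1, from 1.34% to 0.392% (adjusted p = 0.0142), and HSP17.4B in poliv, from 3.60% to 0.538% (adjusted p = 7.12e-08). HSP15.7, a peroxisomal small heat shock protein, had the largest rise, from 0.402% in ddm1 control to 5.98% in ddm1 heat (adjusted p = 7.21e-15, Fisher's exact test), while in wt it had 2.63% and 2.16% and did not pass. Scaled without equal chloroplast levels, none of the 15 passed in either direction, and the share of all genes under that setting is not given here. Among the factors HSFB1, a repressor, had a heat difference of -0.665 points in wt (adjusted p = 0.00801, Fisher's exact test).

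Genes with CG levels most like those of a member were found for the 6 genes with a mean CG level of at least 5%, as the 3 nearest of 24755 genes by Euclidean distance over the 6 groups. HSFA1A was nearest to TAP38 (1.38 points), UBC32 (1.70) and GILT (1.73), and HSFA1B to KAT5 (1.13), AT1G76740 (1.39) and RECQ4B (1.503). For HSFA1D the nearest were AT5G06350 (2.52), ECA2 (2.74) and SCAMP4 (3.05). All 3 had at least 31.0% in ddm1, which follows from a choice that used the ddm1 levels. HSFA2 was nearest to AT1G33870 (1.87), AT2G40420 (1.90) and AT4G02630 (1.99). For HSP101 they were AT1G08220 (1.44), MEF8S (1.94) and AT5G27920 (1.98), and for HSA32 PRH75 (1.42), SPL11 (1.74) and AT3G07900 (1.77). Distances up to 3.05 points are of the size of the intervals of single levels.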

How the data were processed

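According to the labels and the methods of the study, the authors prepared bisulfite libraries with a Pico Methyl-Seq kit and used Trim Galore 0.6.2 for trimming, Bismark 0.22.2 for alignment to TAIR10 and methylpy for cytosine calls; bedtools 2.27 is also named. The deposited table holds, for 69873 features, 3 contexts and 6 groups, counts of methylated calls and coverage counts of all calls, and fractions of the 2 in 18 columns that were not used. It has 1 set of columns per group of 2 libraries, and the way the libraries were joined is not stated in the labels or methods. The groups held between 30597398 and 48850347 CG calls. The smallest coverage listed is 21, and 2 rows that name no locus were left out.

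Levels are methylated calls divided by all calls, with 95% Wilson intervals, which cover counting error only. Differences were tested per gene with a two-sided Fisher's exact test (the smaller tail times 2), adjusted by Benjamini-Hochberg at 0.05 over those protein-coding genes that every group covers (CG 26975, CHG 26952, CHH 27129), and intervals of differences are Newcombe's. A mutant was called different from wt where the control and heat pairs both passed in the same direction. The difference between heat effects was tested with a z after 1 methylated and 1 unmethylated call were added to each level. For equal chloroplast levels, the expected number of unmethylated calls in the group with the lower chloroplast level was counted as methylated. For scaling, z was divided by the root of its median square over all genes over the expected median, at least 1. Differences shared by many genes enter this divisor along with the spread. Other alternatives were a minimum of 100 calls, adjustment over all features, and single chloroplast identifiers as reference. The script was tested on simulated data.

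The table gives identifiers without coordinates. Positions, symbols, neighbours and sequences are from the TAIR10.1 RefSeq genome and annotation, and the sources used here do not give the intervals over which the authors summed calls. All 70 genes of the lists had an annotated protein-coding locus, and 56 matched the name used here. The named genes are all members, the genes of the lists that passed a test (at most 4 per list and comparison, largest first), adjacent genes and nearest genes, with FGT1, and CHH levels of small heat shock proteins and of the 5 genes lower in all genotypes, chosen after their values were seen where the rule does not name them. The members and lists were chosen with earlier results of these data known. Python 3.11.15, numpy 2.4.6, scipy 1.17.1 and pandas 2.3.3 were used.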

Additional observations from a re-analysis of the deposited data

Results flagged for a closer look

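At 3 genes the effect of heat in a mutant differed from that in wt by the z test of the difference over all genes, which compares pooled libraries and has no replicate error. For HSP22 the effect in ddm1 exceeded that in wt by 7.70 points in CHG and by 1.61 points in CHH. Such a higher effect in ddm1 was found at 1.83% of all genes in CHG and 3.34% in CHH. For HSP17.6C the effect in CHH exceeded that in wt by 1.28 points in poliv and by 1.87 points in ddm1, and both use the wt control level of 1.44%. For HSA32 the effect in CHH exceeded that in wt by 0.830 points in poliv, where 1.58% of all genes were higher. At equal chloroplast levels the differences of HSP22 and HSP17.6C passed at an adjusted p of 0.05 and that of HSA32 did not.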

How the results depend on the processing

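No paired analysis was possible because the table holds 1 pooled set of columns per group, and for the same reason no library could be left out in turn. All counts in this paragraph are out of the 10 members. Shares of all genes under the same alternatives are not given here, so these counts do not show losses particular to the members. With groups at equal chloroplast levels, the members higher after heat went to 0 in CG in wt and 0 in CHG in poliv. In CHH they went to 0, 0 and 1 in wt, poliv and ddm1. With the statistic scaled, the counts of members higher were 0 in CG in wt and 0 in CHH in each genotype. The counts of members lower in CHH were then 0 in each genotype, and those lower in CG against wt were 0 in poliv and 0 in ddm1. With both steps together, the counts higher were 0 in CG in wt, 0 in CHG in poliv and 0 in CHH in each genotype, and those lower in CG were 0 in poliv and 0 in ddm1. Adjusted over all features, 1 member was higher and 0 lower after heat in CHH in poliv, and 1 was lower in CHH in poliv than in wt in both pairs. The rise of HSP21 in CHH after heat in ddm1 did not pass with that adjustment (adjusted p = 0.0598, Fisher's exact test). Against every single chloroplast identifier 0 members stood above in CHH in all 6 groups, also without ATCG09900, an alternative chosen after the data were seen. At equal chloroplast levels 1 member had a higher heat effect in CHH in poliv than in wt. The rise of HSP101 in CHH in poliv turned to -0.106 points at equal chloroplast levels, with and without scaling. A minimum of 100 calls changed no call. The causes of these changes were not tested, beyond what each alternative does to the calls. Calls per gene limit the small genes most: HSP22 has 194 to 315 CG calls per group.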
